A study of Gallus gallus with 6 samples.

Results

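The regions described here are wide stretches of TCF21 occupancy with moderate pileup, the number of immunoprecipitated fragments stacked at a peak summit. Peaks of the 3 peak lists of the series were joined into regions wherever peaks of different lists overlapped by at least 1 bp, and regions with a peak of every list on a numbered chromosome, Z or W were kept. Regions were chosen by span and pileup: a region was taken when it spanned at least 1200 bp and its highest pileup stayed under 100 in at least 1 list. This gave 1658 wide moderate regions among 36270 such regions. Without list 1 the same rule gave 1073 regions, of which 1069 overlapped a wide moderate region, fewer by a factor of more than 1.5. Without list 2 or list 3 it gave 1208 or 1217 regions. Each of these runs also asks for fewer lists. A minimum span of 1000 bp or 1500 bp in place of 1200 bp gave 3265 or 645 regions. Since span and pileup chose the regions, they are described with no test, and so is the fold enrichment, which is computed from the pileup.

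All 6 samples were chicken preadipocytes, the precursors of fat cells, taken from adipose tissue and carrying a lentivirus (LV-TCF21) for stable overexpression of TCF21. All had been given 300 μM oleic acid for 24 h to induce differentiation, so none of these samples was untreated or without the construct. In the 3 TCF21 samples, sonicated chromatin was precipitated with an antibody to the HA tag, and the other 3 samples were input DNA with no antibody. The protocol also names a rabbit IgG precipitation, which is not analysed here. The question of the series was where TCF21 binds in these cells.

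TCF21 is a transcription factor of the basic helix-loop-helix family, whose members bind DNA as dimers at short sequences called E-boxes. It acts in the development of mesenchymal tissues and is expressed in preadipocytes. A factor that sits at several nearby sites can give a row of summits that a peak caller reports as 1 wide peak or as several adjoining ones, because fragments around each site overlap.

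Lists 1, 2 and 3 held 59501, 55895 and 57436 peaks with a median pileup of 15, 14 and 12 fragments. List numbers are those of the peak names and were not matched to replicate numbers, and the labels do not say that the samples came from separate cultures, so an SD over the lists may measure technical spread only. Total reads are not in the lists, so depth is unknown and a pileup set beside that of another list includes any difference in depth. Regions of 2 other kinds serve for comparison. The 33625 narrower regions span under 1200 bp and have a highest pileup under 100 in at least 1 list. The 359 wide high regions span at least 1200 bp and reach 100 in every list.

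The wide moderate regions spanned 1200 to 3836 bp, with a median of 1414 bp and an interquartile range of 1285 to 1635 bp. The median was 523 bp for narrower regions and 1468 bp for wide high regions. Most lay not far above the limit: 782 (47.2%) spanned 1200 to 1399 bp, 405 (24.4%) spanned 1400 to 1599 bp and 338 (20.4%) spanned 1600 to 1999 bp. A tail of 96 regions (5.79%) spanned 2000 to 2499 bp, and 37 (2.23%) were wider still. No gap in span marked the limit, since 107 regions under the pileup limit spanned 1200 to 1219 bp and 126 spanned 1180 to 1199 bp.

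**Figure D1:**
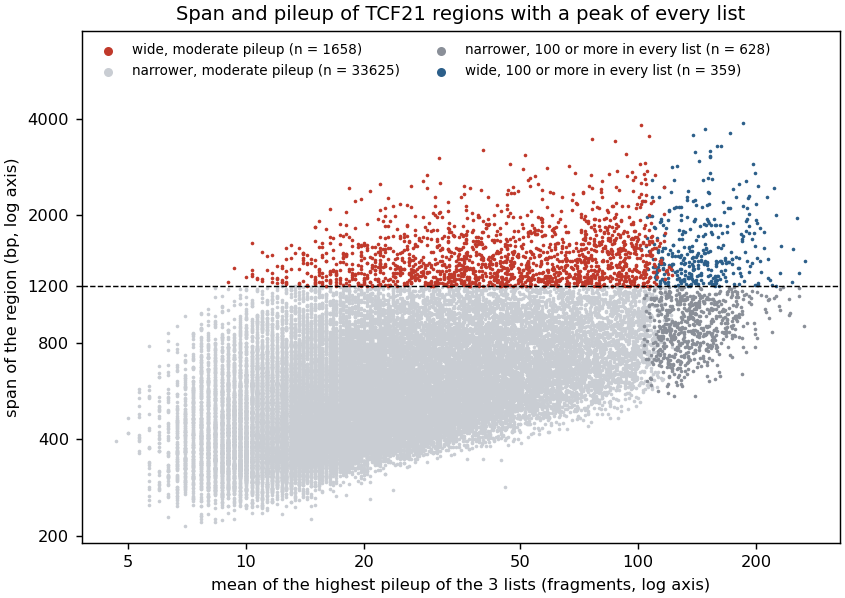
Each point is a region with a peak of every list, placed by the mean over the 3 lists of its highest pileup (fragments, log axis) and by its span (bp, log axis); the dashed line marks 1200 bp. The 1658 wide moderate regions (red) run from a mean of 9 to one of 122 fragments, against 33625 narrower regions of moderate pileup (light grey), 628 narrower regions above the limit in every list (dark grey) and 359 wide high regions (blue).

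In most wide moderate regions at least 1 list alone reached the span limit. The peaks of list 1 alone extended over at least 1200 bp in 1102 of the 1658 regions (66.5%), those of list 2 in 1006 (60.7%) and those of list 3 in 895 (54.0%). All 3 lists reached that extent in 620 regions (37.4%), and no list did in 204 (12.3%), where the span was reached only by adding lists. A single peak of at least 1200 bp was present in every list in 192 regions (11.6%) and in no list in 412 (24.8%). In those 192 regions the median of the mean pileup was 71 fragments and 33.9% had several summit positions, against 36 fragments and 75.7% in the 412 regions without such a peak. The wide moderate regions therefore ranged from 1 broad peak found in every list to rows of short peaks.

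The strongest peak had a median width of 1176, 1055.5 and 986 bp in lists 1, 2 and 3 in wide moderate regions, against 423, 405 and 386 bp in narrower regions. The peaks of a list covered a median of 87.9%, 82.3% and 78.9% of the span of a wide moderate region. In narrower regions the covered share was 86.8%, 82.9% and 79.1%, a difference of 0.0573 ± 0.919 percentage points (SD, n = 3). At like pileup the covered share was lower in wide moderate than in narrower regions, with differences of −7.12 ± 2.27 percentage points under 20 fragments, −5.15 ± 1.72 at 20 to 40, −2.18 ± 1.198 at 40 to 60 and −1.84 ± 1.603 at 60 to 80, each lower in all 3 lists. At 80 to 100 it was −1.58 ± 1.99 and at 100 and over −2.09 ± 3.5999, both within the spread between lists.

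Wide moderate regions held several peaks of 1 list more often than both comparison groups over all pileups, although a larger span leaves room for more peaks than in narrower regions. Each list gave a single peak in 660 regions (39.8%), which is 3 peaks in all. There were 4 peaks in 452 regions (27.3%), 5 in 419 (25.3%), 6 in 96 (5.79%), 7 in 23, 8 in 7 and 9 in 1. At least 1 list thus had several peaks in 998 of 1658 wide moderate regions (60.2%), against 147 of 359 wide high regions (40.9%) and 1136 of 33625 narrower regions (3.38%). Lists 1, 2 and 3 split 27.1%, 32.9% and 36.5% of wide moderate regions (32.2 ± 4.72%, SD, n = 3), against 17.0%, 20.9% and 25.1% of wide high regions (21.0 ± 4.04%). Within every list the share was higher in wide moderate than in wide high regions, by 11.2 ± 0.964 percentage points. All wide high regions had a mean pileup of 100 or more, as did 106 wide moderate regions. Pileup still differed between these sets, with a median, averaged over lists, of 107 fragments in wide moderate and 143 in wide high regions. The share in these wide moderate regions exceeded that in wide high regions by 5.65 percentage points in list 1 and 7.95 in list 3. In list 2 the difference was −2.02. The mean difference there, 3.86 ± 5.22, was within the spread between lists. Under a stricter joining, at a reciprocal overlap of 50%, 1028 regions met the limits, of which 0.195% had several peaks of 1 list and 19.8% several summit positions. Peaks of 1 list do not overlap, so several of them can seldom be joined at that overlap. The 0.195% thus follows largely from the joining rule and says little about splitting. List 3, with the lowest pileups, had the highest share in both groups, and whether depth has a part in this was not tested.

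Lists often disagreed on whether a region was split. A region was split in 1 list only in 468 cases (28.2%), in 2 lists in 457 (27.6%) and in all 3 lists in 73 (4.40%). The median span was 1340.5 bp with no split, 1425 bp with a split in 1 list, 1533 bp in 2 lists and 1864 bp in 3 lists. The median of the mean pileup was 53, 43, 42 and 36.7 fragments in the same order. The 73 regions split in every list were thus the widest of these sets and those with the lowest pileup.

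Where a list split a region into several peaks, the second strongest had a median pileup of 16 fragments in list 1 (450 regions), 16 in list 2 (546) and 14 in list 3 (605), beside 43.5, 40 and 38 for the strongest. Second peaks were therefore near the median peak of their own list. The second peak had a median of 43.8 ± 0.614% of the pileup of the first (SD, n = 3), and it reached at least 50% of it in 44.0 ± 0.436% of cases. The pair of summits lay a median of 797 ± 13.4 bp apart, and the gap between the edges of both peaks had a median of 232 ± 9.09 bp. These values hardly differed between lists.

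Summits of all lists were then chained into distinct positions at gaps of at most 100 bp. There was 1 position in 546 wide moderate regions (32.9%), 2 in 812 (49.0%), 3 in 245 (14.8%), 4 in 52 (3.14%) and 5 in 3. Several positions were found in 1112 of 1658 wide moderate regions (67.1%), against 151 of 359 wide high regions (42.1%) and 4399 of 33625 narrower regions (13.1%). A larger span leaves room for more positions than in narrower regions. The share in wide moderate regions was 87.5% at a mean pileup under 20 and 52.4% at 80 to 100. At 100 and over, where all wide high regions lie, it was 52.8% (56 of 106), nearer to their 42.1%. A peak carries only 1 summit in these lists, so a second maximum inside a wide peak is not counted. Conversely, summits of different lists more than 100 bp apart count as separate positions even where each list has a single peak. Of the 660 regions with a single peak in each list, 17.3% had several positions. The number of positions can therefore err in either direction.

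**Figure D2:**
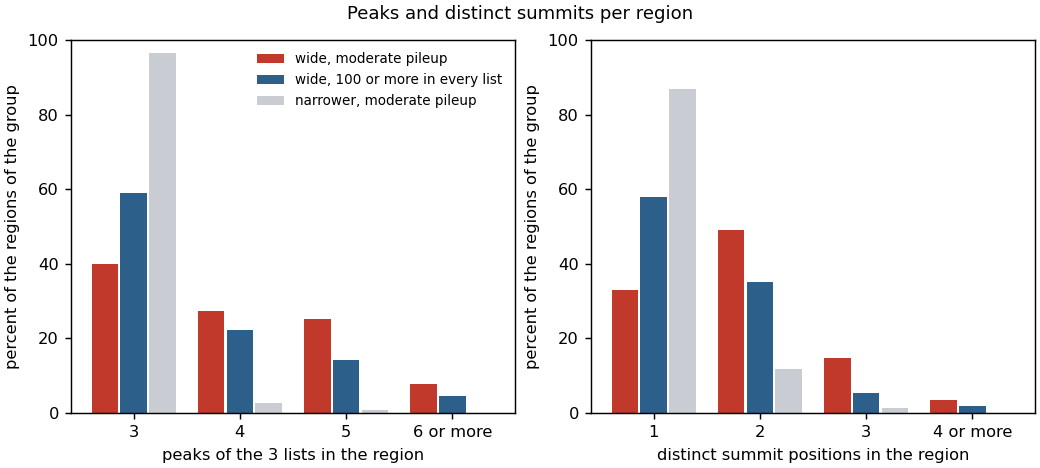
Bars give the percent of the regions of each group by the number of peaks of the 3 lists (left) and by the number of distinct summit positions (right), for wide moderate regions (red, n = 1658), wide high regions (blue, n = 359) and narrower regions (grey, n = 33625). Of the wide moderate regions 39.8% held the 3 peaks that every region must have, and 32.9% had a single summit position.

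A second position shared by every list was rare in all groups, though least so in wide moderate regions. A position with a summit of every list was found once in 1373 wide moderate regions (82.8%), at 2 places in 35 (2.11%) and not at all in 250 (15.1%). Over all 36270 regions, 2 such places were found in 38 (0.105%) and none in 3733 (10.3%). These shares were 0.279% and 2.51% in wide high regions and 0.00595% and 10.3% in narrower regions, which offer less room. Counting positions with summits of at least 2 lists, 1183 wide moderate regions (71.4%) had 1 and 457 (27.6%) had several. Several such positions were found in 16.7% of wide high, 0.970% of narrower and 2.33% of all regions. The 250 regions without a common position had a median mean pileup of 24 fragments, against 50.7 in the other 1408, at the same median span of 1414 bp. Their strongest summits lay a median of 469 bp apart over the lists, against 28 bp in the others.

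The place of the strongest summit was mostly the same in the 3 lists. Its distance between the outermost lists had a median of 35 bp in wide moderate regions, 45 bp in narrower regions and 15 bp in wide high regions. It was within 100 bp in 1280 wide moderate regions (77.2%), against 82.7% of narrower and 96.9% of wide high regions. It exceeded 500 bp in 191 wide moderate regions (11.5%), against 0.726% of narrower and 2.23% of wide high regions. A narrower region offers less room for such a distance. At like pileup the order of the medians was reversed, and the distance was larger in wide moderate than in narrower regions in every band. It was largest in weak regions. With a mean pileup under 20 the median was 395.5 bp in wide moderate and 64 bp in narrower regions. At 20 to 40 it was 55 and 37 bp in the same order, and at 80 to 100 it was 19 and 17 bp. A distance within 100 bp was also less frequent in wide moderate regions in every band. The share was 31.5% against 72.5% under 20, 69.9% against 91.7% at 20 to 40 and 94.0% against 99.4% at 80 to 100.

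The widest region lay on chromosome 20, 8054350 to 8058185, with a span of 3836 bp. Positions are printed as in the lists, whose genome build the sources used here do not give. Its highest pileup was 110, 108 and 88 in lists 1, 2 and 3, at summits within 33 bp. List 1 had a second peak with a pileup of 67 at its right side, whereas lists 2 and 3 had theirs, with 20 and 21 fragments, at its left side. The main peaks of lists 2 and 3 covered the right summit of list 1, and the main peak of list 1 covered both left summits. The lists thus differed in where peaks were cut, and signal at these places was not compared. The region was thus built from 6 peaks at 3 summit positions, of which 1 was common to the lists.

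The region at chromosome 11, 18482240 to 18485761, had 8 peaks and 5 summit positions over 3522 bp, the most positions along with 2 other regions. Its highest pileup was 108, 123 and 88 in lists 1, 2 and 3, and these summits lay within 47 bp. A position further left carried 84 fragments in list 2 and 57 in list 3, while list 1 covered that place with its main peak. The next in span were on chromosome 2, 598712 to 602170 (3459 bp, pileup 93, 76 and 60), and on chromosome 9, 22863346 to 22866761 (3416 bp, pileup 81, 97 and 84). On chromosome 9 the strongest summit was at the left position in lists 1 and 2 and 1330 bp away in list 3. List 1 had nearly equal pileups of 81 and 79 at these places.

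The region at chromosome 23, 5430303 to 5433492, spanned 3190 bp with a pileup of 33, 46 and 42, and that at chromosome 7, 34965740 to 34968845, spanned 3106 bp with 101, 100 and 78. Neither had another region within 10 kb, so 2 of the 6 widest regions stood alone at that distance.

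Many summit positions also occurred at low pileup. The region at chromosome 26, 4224543 to 4226781, had 5 positions, 1 for each of its 5 peaks, with a highest pileup of 20, 21 and 18 and no position common to the lists. The strongest summits of lists 2 and 3, at 4226492 and 4226597, were only just beyond the chaining gap of 100 bp. A peak of list 1, 4225662 to 4226781, covered both. At chromosome 7, 13549205 to 13551376, there were 8 peaks and 5 positions with a highest pileup of 33, 20 and 21. By contrast, the region at chromosome 13, 18128903 to 18131995, had 2 positions with a summit of every list, where the pileup was 22, 16 and 10 at the left one and 53, 53 and 48 at the right one. The regions at chromosome 17, 2921469 to 2924482 (pileup 39, 29 and 25), and chromosome 4, 3386855 to 3389538 (105, 79 and 69), had 4 positions each, 1 of them common.

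**Figure D3:**
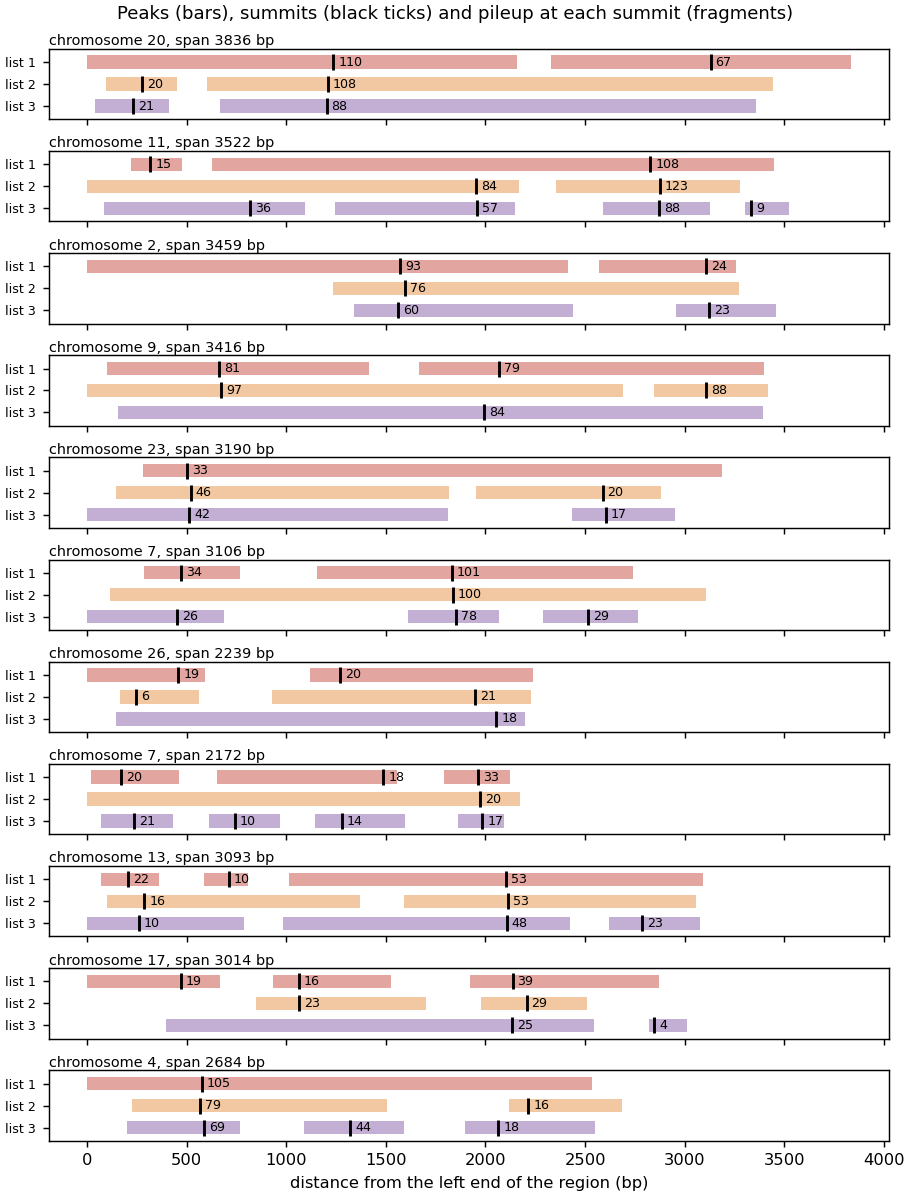
Peaks (bars) and summits (black ticks, with the pileup in fragments) of lists 1, 2 and 3 in the 6 widest wide moderate regions and in the further regions with most summit positions, by distance in bp from the left end of the region. A stretch that 1 list reports as a single peak is often several peaks in another list, as at chromosome 11, span 3522 bp, where list 1 has 2 peaks and list 3 has 4.

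The highest pileup of the wide moderate regions had medians of 51, 47 and 41 fragments in lists 1, 2 and 3 (46.3 ± 5.03, SD, n = 3). It was 22, 19 and 16 in narrower regions (19 ± 3) and 153, 148 and 127 in wide high regions (143 ± 13.8). The pileup was thus moderate only beside the limit of 100: relative to the median peak of its list, that of a wide moderate region was 3.40, 3.36 and 3.42 times as high (3.39 ± 0.0307). That median covers all peaks of a list, also those outside regions with a peak of every list. For the like measure, the highest pileup per region, the medians over all 36270 regions were 23, 21 and 17 fragments. The order of the lists in the unscaled medians followed that of the lists as a whole.

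Most regions stayed under the limit everywhere: the highest pileup was under 100 in all 3 lists in 1430 wide moderate regions (86.2%), in 2 lists in 116 (6.996%) and in 1 list in 112 (6.76%). List 3 was under the limit most often, with 1652 regions, against 1470 in list 1 and 1512 in list 2. The pileup of list 1 was highest or tied in 1060 regions and that of list 3 in 96. After division by the median of each list these numbers were 581 for list 1, 598 for list 2 and 494 for list 3.

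Within a region the lists differed less in pileup than in narrower regions and more than in wide high regions. The ratio of the highest to the lowest list, not scaled for depth, had a median of 1.34 in wide moderate regions. It was 1.46 in narrower and 1.18 in wide high regions. Across the 1658 regions, which are not independent replicates, Spearman's rho between lists was 0.953 ± 0.00339 for the pileup and 0.813 ± 0.00958 for the fold enrichment (SD over 3 pairs of lists). It was 0.264 ± 0.0295 for the input level, which rests on few fragments. The largest ratio was 3, at chromosome 7, 33461049 to 33462710, with a pileup of 21, 7 and 17, followed by chromosome 3, 45602617 to 45604023, with 29, 14 and 11, and chromosome 26, 3103617 to 3104851, with 13, 18 and 7. None of these exceeded 29 fragments in any list. Across the 33625 narrower regions rho was 0.876 ± 0.00292 for the pileup, 0.740 ± 0.00401 for the fold enrichment and 0.365 ± 0.0123 for the input level.

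The lowest mean pileup was 9, at chromosome 21, 3223058 to 3224291, with 10, 7 and 10 fragments in 5 peaks and strongest summits 919 bp apart. The regions at chromosome 2, 144681667 to 144683039 (8, 9 and 11), chromosome 1, 168946602 to 168947884 (9, 12 and 9), and chromosome 19, 4458660 to 4460297 (8, 12 and 11), were alike. Their fold enrichments were 3.47 ± 0.450, 4.29 ± 1.34, 4.38 ± 0.607 and 4.38 ± 1.06 (SD, n = 3), in the order named with chromosome 21 first. In these 4 regions the strongest summits lay 407 to 919 bp apart between lists, so their width joined weak peaks whose strongest summits did not coincide.

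At the other end, the region at chromosome 12, 2249001 to 2250304, had a pileup of 151, 117 and 98 in 3 peaks with summits within 22 bp. It entered by the value of list 3 alone. The same held for chromosome 28, 3090043 to 3091402 (140, 124 and 99), chromosome 12, 1763850 to 1765228 (134, 128 and 98), and chromosome 2, 100514012 to 100515319 (131, 132 and 94). These 4 regions spanned 1304 to 1379 bp, below the median span of wide moderate regions. At the limit itself, the region at chromosome 7, 4383972 to 4386482, was inside with 105, 111 and 99 fragments and that at chromosome 17, 7856574 to 7859147, outside with 121, 100 and 105. By span, chromosome 2, 583046 to 584245, was inside with 1200 bp and a pileup of 117, 111 and 92, and chromosome 1, 92653270 to 92654468, outside with 1199 bp and 25, 25 and 17.

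The fold enrichment over input, computed by the authors' software, had a median of 15.1, 14.3 and 14.4 in wide moderate regions (14.6 ± 0.401, SD, n = 3), against 7.25, 6.83 and 6.78 in narrower regions (6.95 ± 0.261). The gap was much smaller at like pileup. The medians differed by 0.607 ± 0.200 under 20 fragments and by 0.368 ± 0.138 at 20 to 40 (wide moderate minus narrower), with wide moderate regions higher in all 3 lists. Pileup was not fully matched within these bands. The median pileup of wide moderate regions was 1.19 ± 0.0335 times that of narrower ones under 20 fragments and 1.10 ± 0.0121 times at 20 to 40. The ratios of the median fold enrichments were smaller, 1.12 ± 0.0399 and 1.04 ± 0.0133. The difference in fold enrichment was −0.437 ± 0.252 at 40 to 60, where wide moderate regions were lower in all 3 lists. It was 0.0489 ± 0.582 at 60 to 80, where wide moderate regions were higher in 1 list only. At 80 to 100 it was −0.779 ± 0.787, lower in all 3 lists. At 100 and over it was 0.551 ± 0.531, higher in all 3 lists, by only 0.0228 in list 3. The sign thus changed between bands. The means were highest at chromosome 2, 100514012 to 100515319, with 52.1 ± 15.95, at chromosome 12, 1763850 to 1765228, with 50.5 ± 7.72, at chromosome 1, 137722806 to 137724171, with 47.2 ± 6.65, and at chromosome 3, 62722203 to 62723775, with 46.9 ± 17.7. These means differed by less than the smallest of their SDs. The input level of the regions on chromosomes 2 and 3 was at its floor, the smallest value of a list, in 1 list.

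The input level is the local control value implied by the pileup and fold enrichment of the strongest peak, rather than a count of input fragments at its summit. The rule did not use this level directly. It was somewhat higher in wide moderate than in narrower regions over all pileups. Relative to the mean of the autosomal peaks of the list it averaged 1.19, 1.19 and 1.21 in wide moderate regions (1.199 ± 0.0110, SD, n = 3), 1.04, 1.03 and 1.05 in narrower regions (1.04 ± 0.00819) and 1.40, 1.36 and 1.43 in wide high regions (1.39 ± 0.0340). The difference from narrower regions was 0.160 ± 0.00842 and had the same sign in every list. It was smaller at like pileup, with 0.0966 ± 0.0221 under 20 fragments, 0.0693 ± 0.0178 at 20 to 40, 0.0722 ± 0.0328 at 40 to 60 and 0.0380 ± 0.0264 at 60 to 80. At 80 to 100 it was 0.0387 ± 0.0391 and at 100 and over 0.0130 ± 0.0570, both within the spread between lists, and in the highest band list 1 had the opposite sign (−0.0504). With 3 lists, a two-sided exact sign-flip test cannot give a p below 0.25, so differences here are set against the SD only.

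A high input level was rare: the mean over lists was at least 2 in 32 wide moderate regions (1.93%), against 1.06% of narrower and 5.57% of wide high regions. The highest were at chromosome 1, 152860578 to 152861909 (2.94 ± 0.985), chromosome 15, 756340 to 757904 (2.83 ± 0.489), and chromosome 3, 57211385 to 57213062 (2.64 ± 1.12). Their pileups were 47, 43 and 41, then 78, 81 and 59, then 64, 104 and 93, and their fold enrichments 7.14 ± 2.33, 11.5 ± 1.78 and 14.98 ± 1.56.

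A rising share of regions was wide as the pileup rose. Of the regions with a mean pileup under 20, 184 of 17905 (1.03%) spanned at least 1200 bp, and of those of 20 to 40, 515 of 10522 (4.89%) did. The share was 9.76% at 40 to 60, 14.5% at 60 to 80, 23.1% at 80 to 100 and 34.2% at 100 and over. The number of wide moderate regions was largest in the band of 20 to 40 fragments (515), followed by that of 40 to 60 (357). It was 184 among the 17905 regions under 20 and 233 among the 1010 regions of 80 to 100. The band with most regions thus did not hold most wide moderate regions. Span and pileup belong to the choice of the regions and carry no test.

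Wide moderate regions stood closer to other regions than narrower ones did. Another region with a peak of every list lay within 10 kb of 1420 of 1658 wide moderate regions (85.6%), against 314 of 359 wide high regions (87.5%) and 24117 of 33625 narrower regions (71.7%). At least 3 such neighbours were counted for 708 wide moderate regions (42.7%), against 46.8% of wide high and 25.1% of narrower regions. The gap to the closest region had a median of 2008 bp in wide moderate, 1828 bp in wide high and 3990 bp in narrower regions. Of the wide moderate regions 238 (14.4%) had no neighbour within 10 kb, 370 (22.3%) had 1 and 342 (20.6%) had 2. Within 5 kb a neighbour was found for 73.1% of wide moderate and 55.6% of narrower regions, and within 20 kb for 94.4% of wide moderate and 85.2% of narrower regions.

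The same was seen within each list, counting other peaks of that list within 10 kb of the region. At least 1 was present for 93.6%, 91.7% and 91.6% of wide moderate regions (92.3 ± 1.15%, SD, n = 3), against 82.6%, 80.9% and 81.4% of narrower regions (81.6 ± 0.855%). The difference was 10.7 ± 0.431 percentage points, and each list showed it. The mean number of such peaks was 3.52 ± 0.107 for wide moderate and 2.41 ± 0.0775 for narrower regions. Against wide high regions, with 93.4 ± 1.90%, the difference was −1.13 ± 0.786 percentage points, lower in each list.

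At like pileup the difference from narrower regions remained in every band and became smaller as pileup rose. It was 12.9 ± 0.543 percentage points under 20 fragments, where 92.0% of wide moderate and 79.1% of narrower regions had another peak. It was 9.11 ± 0.580 at 20 to 40, 7.496 ± 1.66 at 40 to 60 and 5.58 ± 0.623 at 60 to 80. At 80 to 100 it was 4.04 ± 1.62, and at 100 and over 3.48 ± 0.764. The share among wide moderate regions hardly moved over the bands, between 91.6% and 93.3%, while that among narrower regions was 79.1% in the lowest band and 89.2% at 80 to 100.

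**Figure D4:**
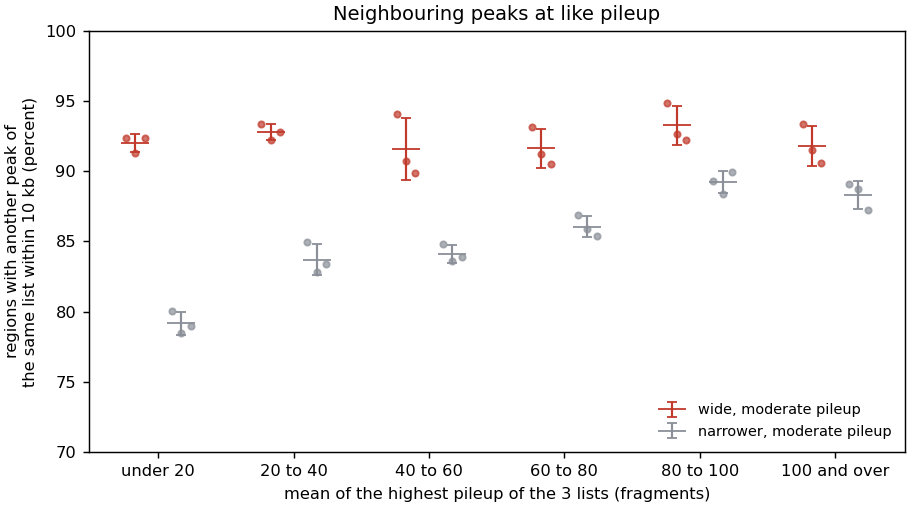
Percent of regions with another peak of the same list within 10 kb (vertical axis from 70 to 100), by the mean of the highest pileup of the 3 lists in fragments, for wide moderate regions (red) and narrower regions of moderate pileup (grey). Points are the 3 lists and bars the mean and SD; the wide moderate regions lie above the narrower ones in every band, with means between 91.6% and 93.3%.

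The regions with most neighbours were at chromosome 2, 19943402 to 19944665, with 11 regions within 10 kb and a pileup of 62, 39 and 34, at chromosome 23, 3512033 to 3513257, with 10 and a pileup of 19, 20 and 10, and at chromosome 12, 1838825 to 1841636, the widest of 11 regions with 9, and a pileup of 66, 55 and 55. Another wide moderate region was within 10 kb of 294 (17.7%), and several were within 10 kb of 54 (3.26%). Any other region of at least 1200 bp was within 10 kb of 346 (20.9%), so in most cases all the neighbours were under that span. The closest pair was 107 bp apart on chromosome 9, at 22819323 to 22820855 with 9, 15 and 9 fragments and at 22820963 to 22822316 with 30, 24 and 25. On chromosome 1, 51244353 to 51245632 (38, 36 and 36) and 51245825 to 51247430 (52, 56 and 43) were 192 bp apart. On Z, 54672949 to 54674413 (14, 19 and 9) and 54674616 to 54676702 (55, 49 and 35) were 202 bp apart. In each pair the same side had the higher pileup in all 3 lists.

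On a larger scale, 702 wide moderate regions (42.3%) lay in windows of 100 kb with at least 10 regions, against 42.6% of wide high and 25.5% of narrower regions. They occupied 1290 of the 7982 windows that held a region, and 274 of the 1290 held several. The most in 1 window was 6 of 18 regions, at chromosome 28, 3000001 to 3100000. Windows with 5 were at chromosome 1, 54100001 to 54200000 (of 31 regions), chromosome 3, 27700001 to 27800000 (of 28), chromosome 12, 8900001 to 9000000 (of 16), chromosome 14, 4200001 to 4300000 (of 12), and on chromosome 17 at 1800001 to 1900000 (of 13) and 6000001 to 6100000 (of 15).

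Chicken chromosomes range from a few large ones to many short microchromosomes, which are rich in genes and GC. Wide moderate regions took a larger share of the regions on short autosomes. They were 733 of 19779 regions (3.71%, exact 95% interval 3.45 to 3.98%) on the 5 autosomes whose peaks reached 50 Mb or more, and 352 of 6974 (5.05%, 4.55 to 5.59%) on the 6 of 20 to 50 Mb. They were 459 of 7088 (6.48%, 5.91 to 7.07%) on the 13 of 5 to 20 Mb and 57 of 725 (7.86%, 6.01 to 10.1%) on the 7 shorter ones. Intervals cover counting error only and treat regions as independent, which neighbours are not. Per Mb there were 1.21, 2.11, 3.24 and 3.83 wide moderate regions in the order from large to short. All regions with a peak of every list were also denser on shorter autosomes, with 32.5, 41.8, 50.0 and 48.7 per Mb in that order.

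Over all pileups the sex chromosomes stood at the low end. Z held 57 among 1691 regions (3.37%, 2.56 to 4.35%), or 0.694 per Mb, where all its regions came to 20.6 per Mb. W held 0 of 13 regions, with an exact upper limit of 24.7%. The wide moderate regions of Z had a median mean pileup of 28.7 fragments, against 46.3 on autosomes of 50 Mb or more. Narrower regions on Z also had a lower median, 14 fragments, against 19 on autosomes of 50 Mb or more. The order was not kept at like pileup. Under 20 fragments, 1.34% of the regions of Z spanned at least 1200 bp (0.751 to 2.20%), against 0.644% on autosomes of 50 Mb or more (0.495 to 0.823%). The share was also higher on Z at 20 to 40, with 5.28% on Z against 3.93% on autosomes of 50 Mb or more, at 60 to 80, with 19.4% on Z against 11.6%, and at 100 and over, with 46.7% on Z against 32.8%. It was lower on Z at 40 to 60, with 8.20% on Z against 8.43%, and at 80 to 100, with 16.7% on Z against 19.9%. The exact intervals overlapped in every band, and those of Z rest on few regions from 60 fragments on.

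The order of the 3 classes of at least 5 Mb was also seen at like pileup, and the median mean pileup of wide moderate regions was 45.7 fragments on autosomes of 5 to 20 Mb, against 46.3 on those of 50 Mb or more. On autosomes of 5 to 20 Mb, 1.81% of the regions with a mean pileup under 20 spanned at least 1200 bp, 7.05% of those of 20 to 40, 12.9% of those of 40 to 60 and 19.5% of those of 60 to 80. On autosomes of 50 Mb or more the shares in the same bands were 0.644%, 3.93%, 8.43% and 11.6%, and the exact intervals of both classes were apart in these 4 bands. At 80 to 100 fragments the share was 29.4% on autosomes of 5 to 20 Mb, against 19.9% on those of 50 Mb or more. At 100 and over, wide high regions included, it was 37.8% on autosomes of 5 to 20 Mb, against 32.8% on those of 50 Mb or more. The intervals overlapped in both of these bands. Autosomes under 5 Mb are left out of this order. Their share was the highest of the autosome classes in every band under 100 fragments. At 100 and over it was the lowest, with 7 of 33 regions (21.2%), and in all bands it rests on few wide regions. As above, these intervals cover counting error only and treat regions as independent, so intervals that are apart are no test of a difference.

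Single chromosomes of 1 class had different shares. Among the largest 5, shares ran from 3.30% on chromosome 3 to 4.75% on chromosome 5. Among autosomes of 5 to 20 Mb they ran from 3.70% on chromosome 27 (8 of 216) to 8.93% on chromosome 26 (30 of 336), with 8.58% on chromosome 17 and 8.81% on chromosome 18. Chromosome 28 had the highest share of chromosomes with at least 20 regions, 32 of 324 (9.88%, 6.85 to 13.7%). It held 6.46 wide moderate regions per Mb, among 65.4 regions per Mb. Most intervals of single chromosomes of 1 class overlapped.

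**Figure D5:**
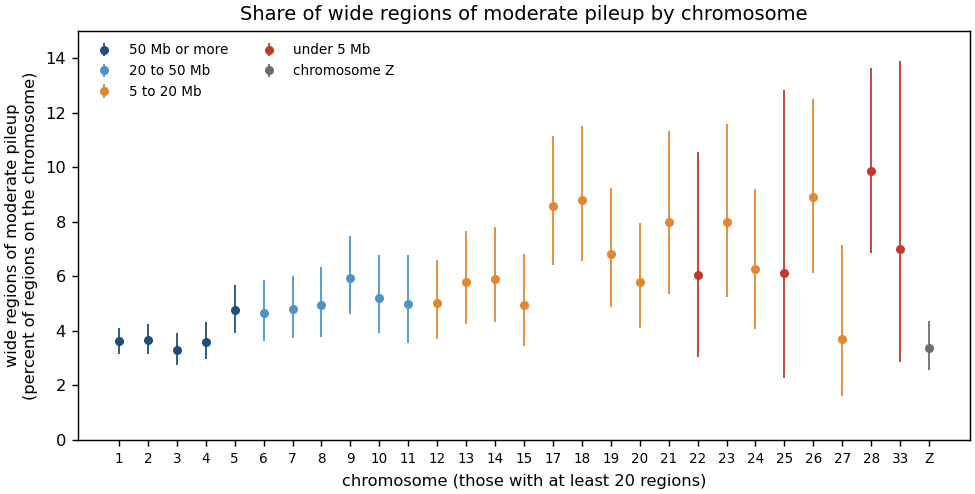
Wide moderate regions as a percent of all regions with a peak of every list on each chromosome with at least 20 regions; bars are exact 95% binomial intervals and colours mark the classes of chromosome span. The share lies between 3.30% and 4.75% on chromosomes 1 to 5 and reaches 9.88% on chromosome 28, while chromosome 27 and Z stay at 3.70% and 3.37%.

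Within each class a neighbour was more frequent for wide moderate regions than for narrower ones. Another region lay within 10 kb of 83.5% of wide moderate regions on autosomes of 50 Mb or more, 89.5% on those of 20 to 50 Mb, 86.9% on those of 5 to 20 Mb, 91.2% on the shorter ones and 73.7% on Z. For narrower regions the shares were 70.02%, 74.1%, 77.0%, 78.4% and 58.5% in the same order. The median number of neighbours was the same in both groups on the shorter ones (2) and on Z (1). For wide high regions the share was 89.9% on autosomes of 50 Mb or more, 78.6% on those of 20 to 50 Mb and 90.8% on those of 5 to 20 Mb.

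On the autosomes of at least 20 Mb, 249 of 1085 wide moderate regions (22.9%) lay within 5 Mb of the first or the last peak of their chromosome, against 21.4% of wide high and 16.5% of narrower regions. Within 1 Mb there were 5.35% of wide moderate, 4.58% of wide high and 3.56% of narrower regions. No chromosome lengths were used, so the true ends may lie further out. These shares pool chromosomes of unlike span and were not split by class. Of the 1085 wide moderate regions 352 lay on autosomes of 20 to 50 Mb, and of the 24921 narrower ones 6395. On those autosomes 5 Mb is a larger part of the chromosome.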

How the data were processed

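The 3 lists were made by the authors from 1 immunoprecipitation each, as the peak names show. Trimmomatic 0.36, STAR 2.5.3a, MACS2, bedtools and HOMER are named in the submitters' processing notes, without their roles, and the columns have the names MACS2 gives them, per the file headers. The sources used here give neither the genome build nor the calling threshold nor the control library, and the control is called input because the labels name input DNA. The pileup is a signal deposited by the authors, not scaled for depth. The fold enrichment is a ratio deposited by the authors, (pileup + 1) / (input + 1), from which the input level was recovered. The authors deposited p-values and q-values on a −log10 scale. The lowest −log10 p of the authors' peak caller was 2.01, 2.01 and 2.00 in lists 1, 2 and 3, so the lists include weakly supported peaks. The strongest peak had a q-value of at most 1e-05 in 97.3 ± 0.876% of wide moderate and 77.4 ± 4.55% of narrower regions (SD, n = 3).

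Peaks were joined with Python 3.11.15, pandas 2.3.3 and numpy 2.4.6, and intervals came from scipy 1.17.1. In each list the peak with the highest pileup stood for a region. Neighbours were counted between nearest edges. Chromosome span is the end of the last peak. Regions outside the numbered chromosomes, Z and W were left out (1150, of which 37 met the span and pileup limits). The joining, summit and neighbour steps were tested on simulated lists. The wide moderate regions and the rules below were chosen with earlier results of these data known. Named regions are the 6 widest, the 6 with most summit positions, the 4 with the lowest and the 4 with the highest mean pileup, the 4 with the highest mean fold enrichment, the 3 with the highest input level, the 3 with most neighbours, the 3 closest pairs, the 3 with the largest ratio of pileups between lists, and regions at each limit, of which 1 on either side is printed. Ties went to the larger span. Windows of 100 kb were named after their counts were seen. No test over regions was run, since regions are not replicates. Alternatives changed the span, the pileup limit, the joining overlap, the q-value, the lists required, the neighbour distance and the chaining of summits, and left out each list in turn.

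The planned share of E-boxes near summits was not run, since no genome of the build was used here.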

Additional observations from a re-analysis of the deposited data

How the results depend on the processing

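With a minimum span of 1000 bp there were 3265 wide moderate regions, 83.4% had a neighbour within 10 kb, 46.0% had several peaks of 1 list and 55.6% several summit positions, and the median pileup and fold enrichment were 40.7 and 13.2. With 1500 bp these values were 645, 87.8%, 76.0%, 80.8%, 53.3 and 16.5. With a reciprocal overlap of 50%, which joins no short peak to a long one, they were 1028, 83.8%, 0.195%, 19.8%, 53.7 and 16.5. With peaks of a q-value of at most 1e-05 only, 75.9% had a neighbour, 41.7% several peaks and 50.8% several summit positions, and the fold enrichment was 15.6, for a number of regions within 1.5 times the main one (1493). A pileup limit of 80 gave a median pileup of 41 and fold enrichment of 13.0, and one of 120 a fold enrichment of 15.8. With peaks of at least 2 lists 91.0% had a neighbour. With 1 list left out at a time there were 1073 to 1217 regions, 87.6% to 89.1% with a neighbour, 45.2% to 46.9% with several peaks, 52.7% to 53.8% with several summit positions, a median fold enrichment of 14.3 to 15.9 and pileup of 47.5 to 48.5, and these runs ask for fewer lists. Neighbours were found for 73.1% within 5 kb and 94.4% within 20 kb. Summits chained at 50 bp gave several positions in 71.0%, and positions with every list in 2.11%. The ratio of the share on autosomes of 5 to 20 Mb to that on those of 50 Mb or more, 1.75, was 1.53 with 1000 bp, 2.29 with 1500 bp and 1.85 to 1.88 without each list. The median relative input level, 1.10, stayed between 1.08 and 1.17 under every alternative run.

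No paired analysis was possible because input samples have no values of their own in these lists, and list numbers were matched to no replicate. Depth is unknown and was not varied, and values of weak peaks rest on few fragments.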
